A study of Rattus norvegicus with 5 samples.

Results

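The RNA levels of 3 inflammatory genes, Il1b, Ccl2 and Icam1, were examined in the left ventricular wall of normal and infarcted rat hearts. They were taken from the table by their Ensembl identifiers, ENSRNOG00000004649 for Il1b, ENSRNOG00000007159 for Ccl2 and ENSRNOG00000020679 for Icam1, and are 3 of the 20646 genes listed. All 3 genes had their highest level in the normal heart. Ccl2 was 8.77-fold lower in the heart treated with the drug-loaded suture than in the normal heart, and 4.58-fold lower than in the untreated infarct. Against the untreated infarct, Il1b and Icam1 were at 0.967 and 1.37 times its level in the same heart. With another scaling of the libraries, described below, these ratios were 0.858 and 1.22. An increase at least as large as that of Icam1 was also seen at 31.7% of the genes compared. The 5 libraries came 1 each from male SD rats of 7 to 8 weeks, in the groups Normal, MI, SNAP, DTMS and S-DTMS, so that the difference between a pair of groups cannot be set against replicates, and no test was made.

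Infarction was made by tying the left anterior descending coronary artery, and MI hearts received no further intervention. In SNAP hearts the nitric oxide donor N-acetyl-3-nitrososulfanyl-valine was injected into the infarcted area. In DTMS hearts that area was stitched with the hollow conductive hydrogel suture without SNAP, and in S-DTMS hearts SNAP was also pumped through the suture (1 sample label spells the group S-DTNS). The methods describe saline given through the suture to a group that they name differently, so whether DTMS hearts received saline is not clear. The Normal group is described as normal rats, and no sham operation is mentioned for it. All 4 infarcted groups carried the ligation, and the operated rats received penicillin. The sample labels give 1 month as the time of sampling, whereas the methods give a week after therapy, and which holds could not be settled. The study's figure legend speaks of biological replicates, but whether RNA of several rats entered a library is not stated.

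Interleukin 1 beta, encoded by Il1b, is a cytokine of activated macrophages and neutrophils that is cut to its active form by caspase-1 and acts on neighbouring cells through NF-kB. The chemokine encoded by Ccl2 draws monocytes that carry the receptor Ccr2 out of the blood. Icam1 encodes an adhesion molecule of endothelial and other cells that binds the beta-2 integrins of leukocytes, so that these can stop and leave the vessel. In the infarcted heart the 3 genes are known as part of the early inflammatory response that brings leukocytes into the dying muscle. In a piece of whole tissue, fewer cells of a type and less RNA per cell cannot be told apart.

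All 3 genes are textbook targets of NF-kB, so the bases before their starts are shown as context for the levels. RefSeq's promoter table for the rat build GRCr8 matched 2 of the 3 genes by symbol, Il1b and Icam1, and the 250 bases before each start are given 5′ to 3′ on the strand of the gene. Capitals mark matches to 3 motifs searched on both strands, namely GGGNNNNNCC for the NF-kB core, TGANTCA for the AP-1 core and TATAAA for the TATA box.
Il1b, chr3:137036582-137036831, minus strand: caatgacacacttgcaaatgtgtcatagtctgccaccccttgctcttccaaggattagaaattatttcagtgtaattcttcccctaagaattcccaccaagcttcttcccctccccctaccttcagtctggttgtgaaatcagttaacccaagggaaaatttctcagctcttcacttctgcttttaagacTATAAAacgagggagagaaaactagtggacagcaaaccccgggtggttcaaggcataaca
Icam1, chr8:27829595-27829844, plus strand: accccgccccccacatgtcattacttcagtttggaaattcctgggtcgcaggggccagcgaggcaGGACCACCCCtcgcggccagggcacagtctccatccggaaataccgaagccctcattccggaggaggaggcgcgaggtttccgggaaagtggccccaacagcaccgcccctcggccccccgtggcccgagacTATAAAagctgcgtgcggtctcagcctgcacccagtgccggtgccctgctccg
Both stretches held the letters TATAAA, which began at position -60 from the RefSeq start of Il1b and at position -53 from that of Icam1. Whether these letters act as a TATA box for that start was not tested. Icam1 also held a match to the NF-kB core on the opposite strand, from position -185 to -176, and the TATA and NF-kB matches did not overlap. Among the 33469 promoters of the table, read over 250 bases before and 50 after the start, TATAAA stood in 14.2%, GGGNNNNNCC in 47.3% and TGANTCA in 7.33%. A match describes the letters only, and the NF-kB core as spelled here is frequent. The search marks this spelling alone, so that a site with other letters would be left unmarked in either stretch. The marked match in Icam1 is therefore not to be taken as the site that NF-kB uses there. Whether NF-kB binds at the marked stretch was not tested.

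The levels are FPKM, the fragments of a gene for the length of the gene and the total of the library. The fragments behind each value could be worked out, because low values stood in whole-number ratios to each other. The library totals were 16731024 to 17379225 fragments, or 0.977 to 1.02 times that of Normal. The 10 most abundant genes of a library took 13.5% of its fragments in S-DTMS and 16.9% to 23.2% in the other 4, which shifts the FPKM of all other genes. The levels are therefore also given with median-of-ratios scaling, in which a library is divided by its typical ratio to the mean library. Since the table does not pair identifiers with names, the tissue and its cell types could not be checked by marker genes, and the other genes of the inflammatory pathways were not analysed here.

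Il1b had the lowest median level of the 3 genes, at an FPKM of 4.57 beside 17.6 for Ccl2 and 12.6 for Icam1. Its FPKM was 6.74 in Normal, 4.57 in MI, 4.12 in SNAP, 5.09 in DTMS and 4.41 in S-DTMS. These rest on 161, 107, 100, 119 and 105 fragments, so that even the lowest value was far above the few fragments at which a level can no longer be told from 0. Normal was the highest, and the 4 infarcted hearts lay close together. The 95% Poisson intervals ran from 5.74 to 7.86 in Normal and from 3.74 to 5.52 in MI, and cover counting error only, neither the variation between rats nor copies made by PCR.

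Il1b was 1.48-fold lower in MI than in Normal, with a counting interval of the ratio from 1.15 to 1.90. The differences of S-DTMS and SNAP from Normal were of the same size, 1.53-fold and 1.63-fold lower, and their intervals also left out equality. DTMS was 1.32-fold lower than Normal with an interval from 1.04 to 1.69, but with median-of-ratios scaling its level was 0.897 times that of Normal with an interval from 0.702 to 1.14. Among the 4 infarcted hearts, none of the 6 pairs differed in Il1b beyond counting error on the FPKM scale. After the scaling the order of MI and SNAP turned, with 4.55 in MI and 4.68 in SNAP, and S-DTMS was then lower than DTMS, at a ratio of 0.712 with an interval from 0.543 to 0.934. The interval of S-DTMS to MI ran from 0.731 to 1.28 on the FPKM scale, so that a difference of less than about this size would not be seen at this depth.

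**Figure D1:**
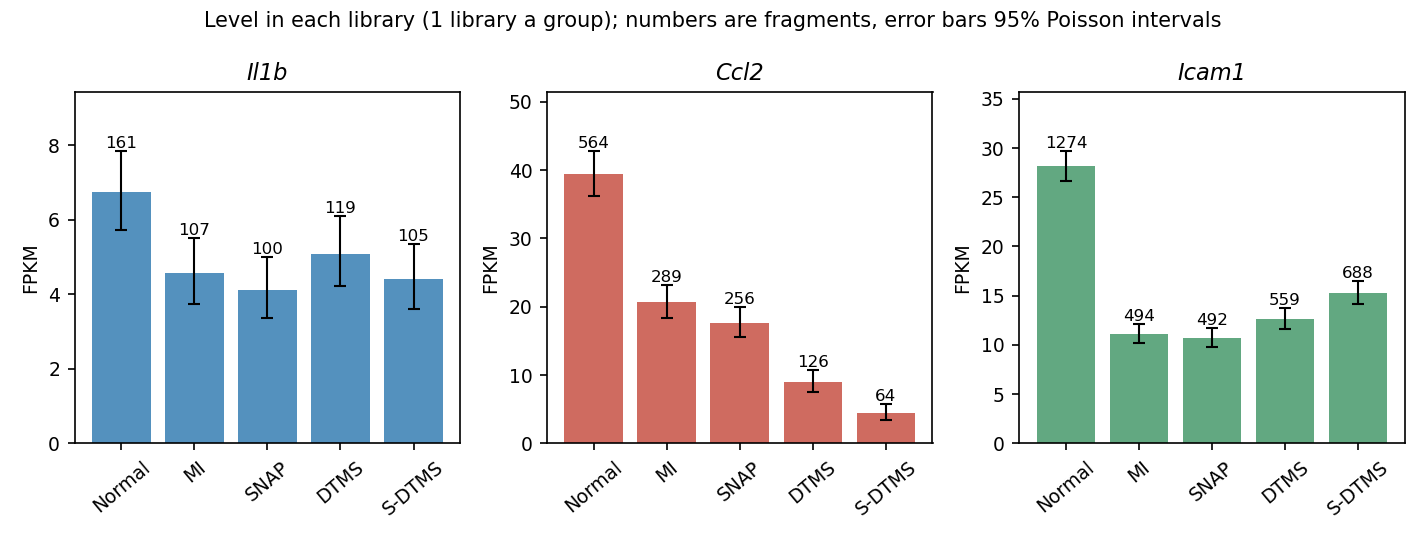
FPKM of Il1b, Ccl2 and Icam1 in each of the 5 libraries, 1 panel a gene with its own axis from 0. Bars are the level of 1 library, error bars its 95% Poisson interval and the numbers the fragments behind it. Normal is highest in each panel, and Ccl2 goes down from 564 fragments in Normal to 64 in S-DTMS, while Icam1 lies between 492 and 688 fragments in the 4 infarcted hearts.

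Ccl2 varied most. Its FPKM was 39.5 in Normal, 20.6 in MI, 17.6 in SNAP, 9.02 in DTMS and 4.50 in S-DTMS. In the same order, 564, 289, 256, 126 and 64 fragments were counted. Both hearts with a suture lay below both infarcted hearts without one, and the heart with SNAP in the suture was the lowest of the 5. Of the 10 pairs of libraries, 9 differed beyond counting error, and only MI and SNAP, neighbours in the order, did not. The same count over all genes is not given here. The order was the same with median-of-ratios scaling, at 35.8 in Normal, 20.6 in MI, 20.0 in SNAP, 9.70 in DTMS and 3.98 in S-DTMS.

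The ratios show how large these steps were. Ccl2 was 1.91-fold lower in MI than in Normal, with a counting interval from 1.66 to 2.21. It was 2.29-fold lower in DTMS than in MI, with an interval from 1.85 to 2.84, and 4.58-fold lower in S-DTMS than in MI, with an interval from 3.49 to 6.11. S-DTMS had 0.499 times the level of DTMS, with an interval from 0.363 to 0.679. SNAP without the suture was 1.17-fold lower than MI, and its interval from 0.984 to 1.39 held equality. Within the libraries, Ccl2 stood above 90.5% of all listed genes in Normal, above 84.1% in MI and above 55.8% in S-DTMS, so that its loss of place did not depend on the library total.

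Icam1 had the most fragments and therefore the narrowest intervals. Its FPKM was 28.2 in Normal, 11.1 in MI, 10.7 in SNAP, 12.6 in DTMS and 15.3 in S-DTMS. The fragments behind these levels numbered 1274, 494, 492, 559 and 688. Normal stood well apart, while the 4 infarcted hearts lay within a narrow band in which S-DTMS was highest on the FPKM scale. MI was 2.53-fold lower than Normal, with a counting interval from 2.28 to 2.81.

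Against MI, Icam1 in S-DTMS was higher by a ratio of 1.37, with an interval from 1.22 to 1.54, opposite in direction to Ccl2. DTMS was higher than MI by a ratio of 1.14, with an interval from 1.00 to 1.28, and SNAP and MI did not differ beyond counting error. S-DTMS remained 1.84-fold lower than Normal. With median-of-ratios scaling, Icam1 was 25.5 in Normal, 11.1 in MI, 12.2 in SNAP, 13.6 in DTMS and 13.5 in S-DTMS. On that scale the suture hearts were still higher than MI beyond counting error, at ratios of 1.22 for both, but the difference between S-DTMS and DTMS was gone, at 0.994 with an interval from 0.888 to 1.11. Of the 10 pairs of libraries, 9 differed in Icam1 beyond counting error as FPKM and 6 on that scale. With 492 to 1274 fragments a library, even a ratio of 1.14 left out equality, so these counts reflect depth as well. How many pairs differ in other genes of this depth is not given here. By its place within the library, Icam1 stood above 86.6% of the listed genes in Normal and above 74.1% to 77.1% of them in the infarcted hearts.

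**Figure D2:**
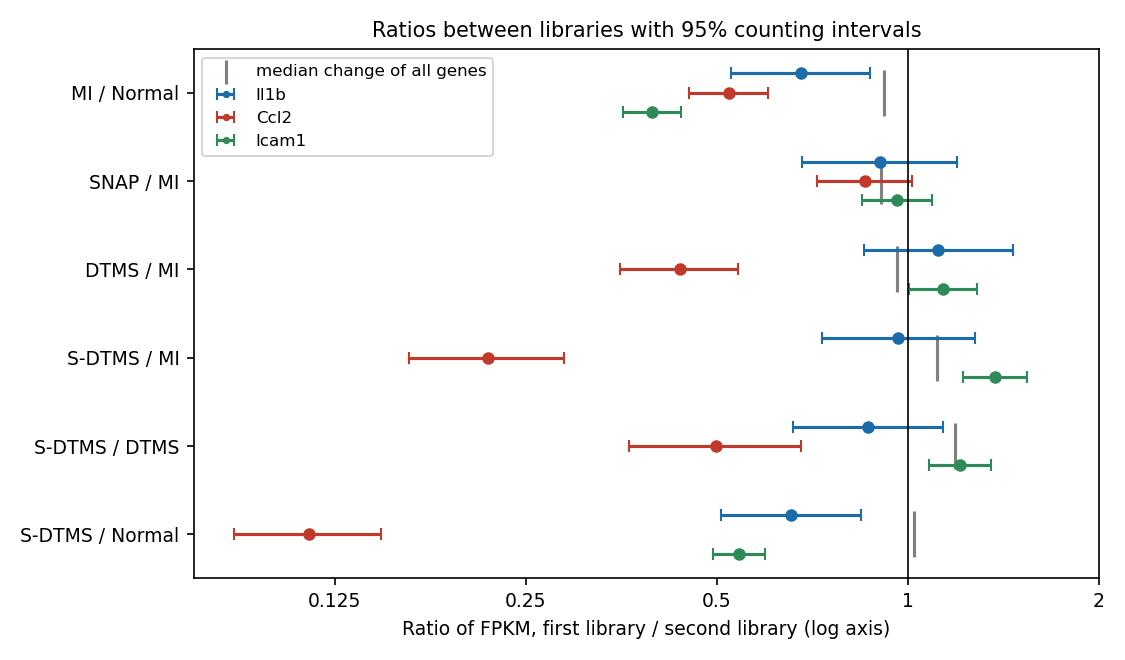
Ratio of FPKM between the libraries of each of 6 comparisons, on a log axis. Points are the 3 genes, error bars 95% counting intervals and grey ticks the median change of all genes. In MI against Normal all 3 genes lie below 1, at 0.678 for Il1b, 0.523 for Ccl2 and 0.395 for Icam1, and in S-DTMS against MI Ccl2 lies at 0.218 and Icam1 at 1.37.

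To place the genes among all others, log2(FPKM + 1) was subtracted between libraries for each of 13769 genes that reached an FPKM of 1 in any library, and a change of 1 in either direction was taken as the limit. On this scale the fold of a low gene is understated. In MI against Normal, 1 of the 3 genes passed the limit, Icam1 at -1.26, beside 6.96% of all genes. Ccl2 was at -0.90 and Il1b at -0.48, and all genes together were shifted by a median of -0.12. A decrease at least as large as that of Icam1 was found at 2.54% of all genes, as large as that of Ccl2 at 5.83% and as large as that of Il1b at 17.3%.

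The treated hearts were each compared with the same MI library, so that these values share its chance deviations. In SNAP against MI, 0 of the 3 genes passed the limit, beside 6.33% of all genes, with changes of -0.12 for Il1b, -0.21 for Ccl2 and -0.05 for Icam1 against a median of -0.14. In DTMS against MI, 1 of 3 passed beside 4.65% of all genes, Ccl2 at -1.11, a decrease as large as which was seen at 2.51% of them. Il1b at 0.13 and Icam1 at 0.17 were on the other side of 0. The suture without SNAP thus went with less Ccl2 but not with less Il1b or Icam1 in these libraries.

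In S-DTMS against MI, 1 of 3 passed beside 14.5% of all genes. Ccl2 was at -1.98, and 0.922% of all genes had a decrease as large. Il1b was at -0.04 and Icam1 at 0.42, while the median of all genes was 0.15. An increase as large as that of Icam1 was seen at 31.7% of all genes, and a decrease as large as that of Il1b at 36.3%. In S-DTMS against DTMS, 0 of 3 passed beside 14.1% of all genes, with -0.87 for Ccl2, -0.17 for Il1b and 0.25 for Icam1 against a median of 0.25. Relative to that median Ccl2 was at -1.12 and Icam1 at 0.0053, so that Ccl2 was then past the limit and Icam1 moved with the bulk of the genes.

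In S-DTMS against Normal, 1 of 3 passed beside 10.5% of all genes. Ccl2 was at -2.88, and 45 of the 13769 genes, or 0.327%, had a decrease as large. Icam1 was at -0.84 and Il1b at -0.51, with a median of 0.03 for all genes. The heart with the loaded suture was thus nearer to MI than to Normal in Il1b, between both in Icam1 and below both in Ccl2.

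**Figure D3:**
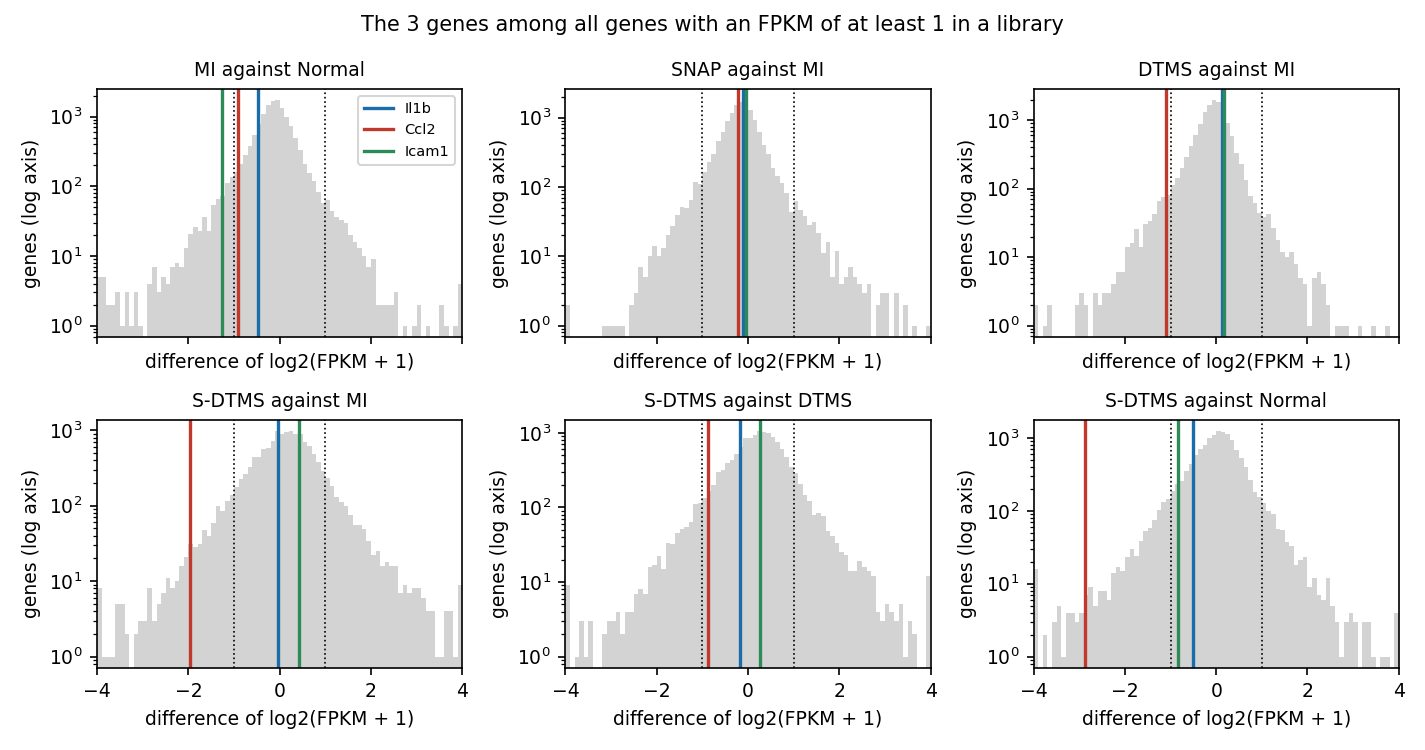
Differences of log2(FPKM + 1) of all 13769 genes in 6 comparisons (grey, number of genes on a log axis, values beyond 4 in the outermost bins) with Il1b, Ccl2 and Icam1 as coloured lines and the limit of 1 dotted. Ccl2 sits at -1.98 in S-DTMS against MI and at -2.88 in S-DTMS against Normal, and in SNAP against MI the 3 lines lie near the peak.

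All 3 genes were lower than Normal in each of the 4 infarcted libraries. This held for 25.3% of all genes on the FPKM scale and for 17.1% with the other scaling, and the 3 genes were among them on both scales. The infarcted libraries were all compared with the same Normal library, so that these differences share its chance deviations. Of the 3, Ccl2 alone was lower than MI in all 3 treated hearts, as were 24.2% of all genes. The full order of Ccl2, from Normal through MI, SNAP and DTMS to S-DTMS, was that of 167 genes, or 1.21%. The orders of Il1b and Icam1 were those of 138 and 270 genes and did not hold with median-of-ratios scaling.

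Ratios between the genes inside a library do not depend on its total or on any scaling. Ccl2 had 1.40 times the FPKM of Icam1 in Normal, 1.85 times in MI and 1.65 times in SNAP. In DTMS the ratio was 0.713 and in S-DTMS 0.294, with an interval from 0.224 to 0.381. Ccl2 was therefore above Icam1 per length in the 3 hearts without a suture and below it in both hearts with a suture, beyond counting error in all 5.

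Against Il1b, the ratio of Ccl2 was 5.86 in Normal, 4.52 in MI, 4.28 in SNAP, 1.77 in DTMS and 1.02 in S-DTMS. In the last library the interval from 0.735 to 1.40 held equality, so that an excess of the chemokine over the cytokine was neither shown nor excluded. Il1b over Icam1 was lowest in Normal, at 0.239 with an interval from 0.202 to 0.282, and in S-DTMS, at 0.289 with an interval from 0.233 to 0.355. In MI, SNAP and DTMS it lay between 0.385 and 0.410. The interval of S-DTMS overlapped that of Normal and also those of MI, SNAP and DTMS, whose lower bounds were 0.330, 0.307 and 0.328.

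**Figure D4:**
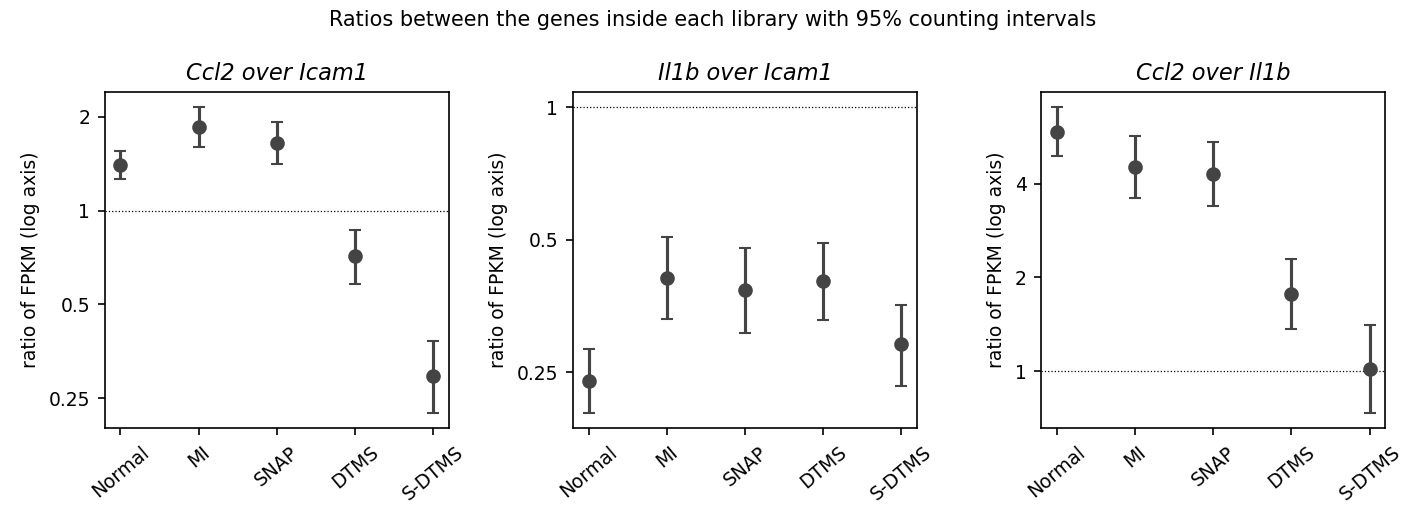
Ratio of FPKM between pairs of the 3 genes inside each library, on a log axis, with 95% counting intervals. Ccl2 over Icam1 goes from 1.85 in MI to 0.294 in S-DTMS, and Ccl2 over Il1b from 4.52 to 1.02, while Il1b over Icam1 stays between 0.239 and 0.410.

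SNAP and the suture, each absent or present in an infarcted heart, form a layout of 4 libraries. The layout is not a clean one, because SNAP was injected into the infarct in hearts without the suture and pumped through it in hearts with one, and MI hearts had no injection. For Ccl2, SNAP went with a change of -0.21 without the suture and of -0.87 with it. The ratio of the corresponding FPKM ratios was -0.78 on the log2 scale, with a counting interval from -1.28 to -0.28, and -1.25 with an interval from -1.75 to -0.75 with median-of-ratios scaling. For Il1b, the value was -0.06 with an interval from -0.60 to 0.49, and -0.53 after the scaling, with an interval from -1.08 to 0.02 that also held 0. For Icam1 it was 0.33 with an interval from 0.09 to 0.57, but -0.14 with an interval from -0.38 to 0.10 after the scaling, so that only the value of Ccl2 kept its direction beyond counting error on both scales. With 1 library in each cell of the layout, the treatment, the route of SNAP and the rat or tissue piece cannot be told apart.

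**Figure D5:**
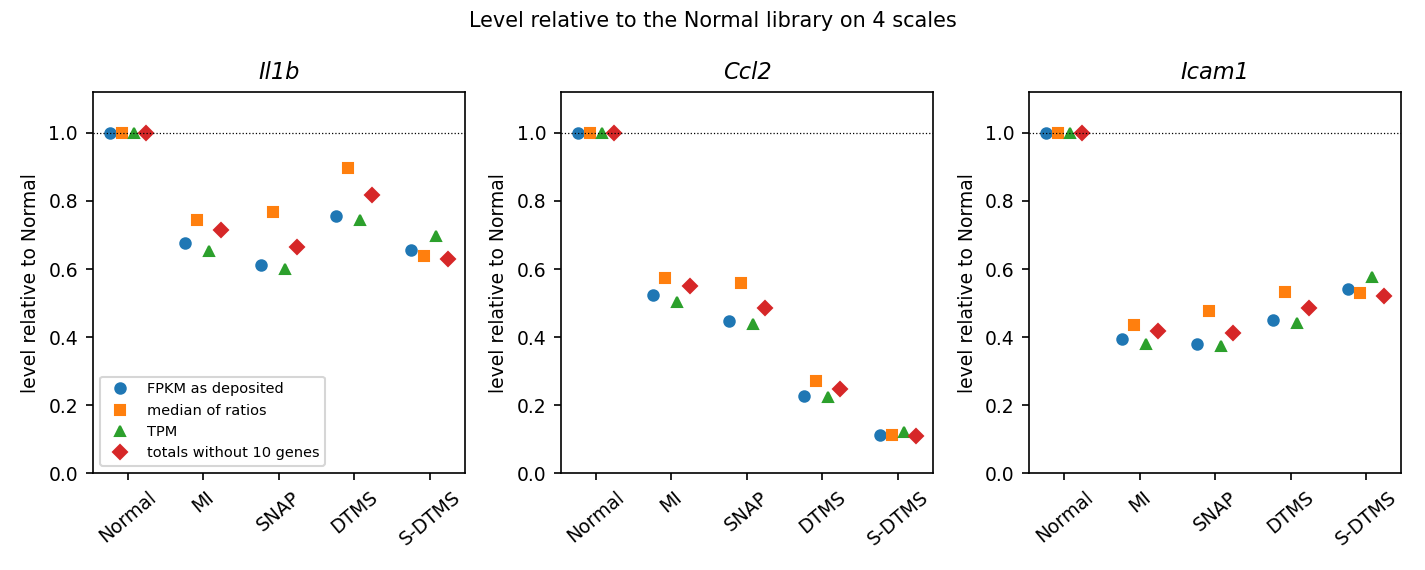
Level of each gene relative to the Normal library on 4 scales, namely FPKM as deposited, median of ratios, TPM, and totals that leave out the 10 most abundant genes. The order of Ccl2 is the same on each scale, Il1b in MI, SNAP and S-DTMS changes order between scales, and Icam1 in S-DTMS is above DTMS as FPKM (15.3 and 12.6) but level with it after the median of ratios (13.5 and 13.6).

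Other genes with a like pattern were looked for by the root mean square difference of centred log2(FPKM + 1) values over the 5 libraries, among genes of similar mean level. The gene most like Icam1 of 4989 compared was ENSRNOG00000008048, at a difference of 0.08, with an FPKM of 22.1 in Normal, 7.78 in MI, 8.39 in SNAP, 10.8 in DTMS and 11.4 in S-DTMS. The gene most like Ccl2 of 5001 compared was ENSRNOG00000000239, at a difference of 0.36, with 30.1 in Normal, 6.73 in MI, 8.66 in SNAP, 5.13 in DTMS and 1.86 in S-DTMS. For Il1b the nearest of 5513 genes lay at 0.04. The table gives no names for these genes.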

How the data were processed

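Left ventricular wall of 5 groups of rats was sequenced by the authors on an Illumina NovaSeq instrument from libraries of a kit that does not mark strand. The authors deposited 1 table of FPKM, with 1 column a group and no column of another sample. The submitters' processing notes name HTSeq and the mouse build mm9, although the identifiers are those of rat genes. The aligner and the annotation are not given in the sources used here. Columns were matched to groups by the sample descriptions.

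The fragments were recovered from the FPKM values by finding the library totals for which gene lengths became whole, which they did within 0.01 for 97.9% of 5286 genes. All 20304 genes above 0 received whole fragments, as the smallest numbers that fit. The steps were also run on data simulated from the recovered lengths and totals. Such data follow the assumed formula of FPKM, so that run cannot show that the deposited values do. The gene lengths were 1396 bases for Il1b, 835 for Ccl2 and 2643 for Icam1. Ratios of fragments carry 95% exact Clopper-Pearson intervals, and those of the 2 by 2 layout normal ones on the log2 scale. No test was made, since each group has 1 library. The authors named edgeR for their own calls, and it was not used here.

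The genes, comparisons and lists were chosen with earlier results of these data known. Genes beyond the 3 were to be named by list, and those most alike in pattern by the smallest root mean square difference among genes whose mean log2(FPKM + 1) lay within 1. The 12 lists of 141 pathway and marker genes were not analysed here, because the reference tables pair 0 identifiers with names. Alternatives were a pseudocount of 0.1, the median of ratios, TPM, totals without the 10 most abundant genes, other filters and limits for all genes and, added after seeing the data, changes relative to the median. Scripts ran in Python 3.11.15 with pandas 2.3.3, SciPy 1.17.1, Matplotlib 3.10.9 and NumPy 2.4.6.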

Additional observations from a re-analysis of the deposited data

Results flagged for a closer look

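The change of Icam1 with SNAP had opposite signs in hearts without and with the suture, with -0.05 for SNAP against MI but 0.25 for S-DTMS against DTMS on the scale of log2(FPKM + 1). The first of these did not differ from 0 beyond counting error, at a ratio of 0.962 with an interval from 0.847 to 1.09. The difference between them was 0.31 and was not tested, since each group has 1 library. With median-of-ratios scaling the changes were 0.12 and -0.01, with a difference of -0.13.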

How the results depend on the processing

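The 18 changes of the 3 genes in 6 comparisons were recomputed under 5 alternatives, which gave 90 values. Of these, 85 lay within the counting interval of the reported change, its bounds put on the scale of log2(FPKM + 1), and 0 of the 4 changes past the limit turned. The other 5 values were of Icam1, whose intervals are the narrowest, so that this count does not show that Icam1 alone depends on the scaling. In S-DTMS against DTMS, median-of-ratios scaling took Il1b from -0.17 to -0.40 and Ccl2 from -0.87 to -1.10, within their wider intervals. The change of Icam1 in the same comparison went from 0.25 to -0.0084 with median-of-ratios scaling, to 0.099 with totals without the 10 most abundant genes and to 0.0053 relative to the median gene. With median-of-ratios scaling Icam1 also went from -0.05 to 0.12 in SNAP against MI and from 0.42 to 0.26 in S-DTMS against MI. Ccl2 in S-DTMS against DTMS passed the limit under 3 alternatives, at -1.10 with median-of-ratios scaling, -1.01 with totals without the 10 most abundant genes and -1.12 relative to the median gene. The sign turned in 6 values, all of small changes, namely Il1b and Icam1 in SNAP against MI with median-of-ratios scaling and relative to the median gene, Il1b in S-DTMS against MI as TPM, and Icam1 in S-DTMS against DTMS with median-of-ratios scaling. With a pseudocount of 0.1 the share of all genes past the limit rose to 11.8% in MI against Normal, 12.7% in SNAP, 9.49% in DTMS and 22% in S-DTMS against MI, 21.9% in S-DTMS against DTMS and 16.6% in S-DTMS against Normal. With a limit of 2 it was 0.85%, 0.69%, 0.458%, 2.22%, 1.98% and 1.52% in the same order. The share of higher genes among those past the limit went from 31.8% to 42.0% in MI against Normal, from 36.6% to 49.5% in SNAP against MI, from 60.6% to 46.7% in S-DTMS against MI and from 67.3% to 44.7% in S-DTMS against DTMS after the median of ratios. The planned counts over gene lists were not run for want of names. No paired analysis was possible because a single library stands for every group.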
